A study of Canis lupus familiaris with 6 samples.

Results

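Stratified epithelium covers the oral mucosa and gingiva above the mandible and is not a tissue of bone. This account follows 10 genes, most of them known from such epithelium, through drilled bone specimens of beagle dogs. They are KRTDAP, IVL, SBSN, KRT16, KRT17, DSC2, LAMA3, S100A2, S100A14 and EPCAM, an adhesion gene of simple epithelia. They were measured on 18 of the 42860 probe sets of an Affymetrix canine array, namely every probe set that the array's annotation assigned to 1 of these symbols alone. The 10 are among 15112 genes with a usable probe set. The members were selected on measured values of these arrays. KRTDAP, LAMA3, S100A14, S100A2 and DSC2 were among the lowest genes in beta-TCP minus control on day 4, and KRTDAP, S100A14, S100A2, IVL and SBSN were low when days 4 and 7 were pooled. The values behind the choice of KRT16, KRT17 and EPCAM are not known here. All day 4 values are therefore a description, with no test, and the day 7 values of the 5 genes low over both days are not independent of the choice.

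Each specimen was a cylinder, 4.5 mm wide and 8 mm long, collected from the jaw (mandible) of 9-year-old beagles, after premolar extraction and 3 months of healing. The implanted sites carried beta-TCP, beta-tricalcium phosphate, a ceramic that is placed in bone defects and resorbed over time, for 4, 7 or 14 days. The control sites were drilled and left without it for the same times, so both arms share the extraction, the healing and the drilled hole. This gives 6 groups of 1 array each, made from 100 ng of total RNA. How many dogs gave the 6 specimens, and which specimens shared a dog, is not given in the sources used here. Each value below is that of bulk RNA of a biopsy, so more cells of a type and more RNA per cell cannot be told apart.

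As background, keratinocytes of a stratified epithelium are born in a basal layer and harden as they move outward. Basal cells rest on a laminin sheet through hemidesmosomes, and neighbouring cells hold together through desmosomes, whose adhesive cadherins are desmocollins and desmogleins. Upper cells stack keratin filaments and cross-link proteins such as involucrin into a tough envelope. After wounding, keratinocytes at the edge switch on stress keratins, KRT16 and KRT17 among them, and move over the gap.

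Levels are given as multiples of the median of the array's own 42860 probe sets, called array medians below, and differences as log2(value + 1), beta-TCP minus control unless another order is stated. On this scale the difference of a weakly read gene is understated. There are no detection calls, so whether a low level lies above background is not known. The 6 arrays did not stand equally close. Spearman correlations over all probe sets lay between 0.723 and 0.779 for pairs that include beta-TCP day 14, and between 0.832 and 0.905 for pairs of the other 5 arrays. The day 14 arrays were also deposited on another scale, with medians of 6.2 (beta-TCP) and 12 (control), where those of days 4 and 7 had a median of 1. In a difference between day 14 and an earlier day, the day and this scale cannot be told apart. Of the 11 bone genes measured, the collagen gene COL1A1, which fibroblasts also express, read from 719.8 to 2521 array medians over the 6 arrays. The markers of bone-forming cells and osteocytes were uneven. On day 4, IBSP (bone sialoprotein) read 31.9 in the beta-TCP site and 4.80 in the control site, and ALPL (alkaline phosphatase) 6.31 in the beta-TCP site and 1.79 in the control site. SPP1 read 509 in the beta-TCP site and 427 in the control site on that day, RUNX2 1.62 and 1.75, and PHEX 0.709 and 1.14. BGLAP, DMP1, MEPE and SOST read under 1 array median in both day 4 sites.

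All 10 genes were highest on the control day 4 array, and each stood there at least 2-fold above its next highest array. Of the 10530 genes kept for comparisons, 15.7% were highest on that array and 1.42% by at least 2-fold. Since most members were chosen for a low value in beta-TCP minus control on day 4, this count follows in part from that choice. The gap to the next array was widest for KRTDAP (3.57 log2) and narrowest for S100A2 (1.21 log2). With 1 array per group no spread between specimens is available, so for no gene can neighbours in the order of arrays be said to differ.

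**Figure D1:**
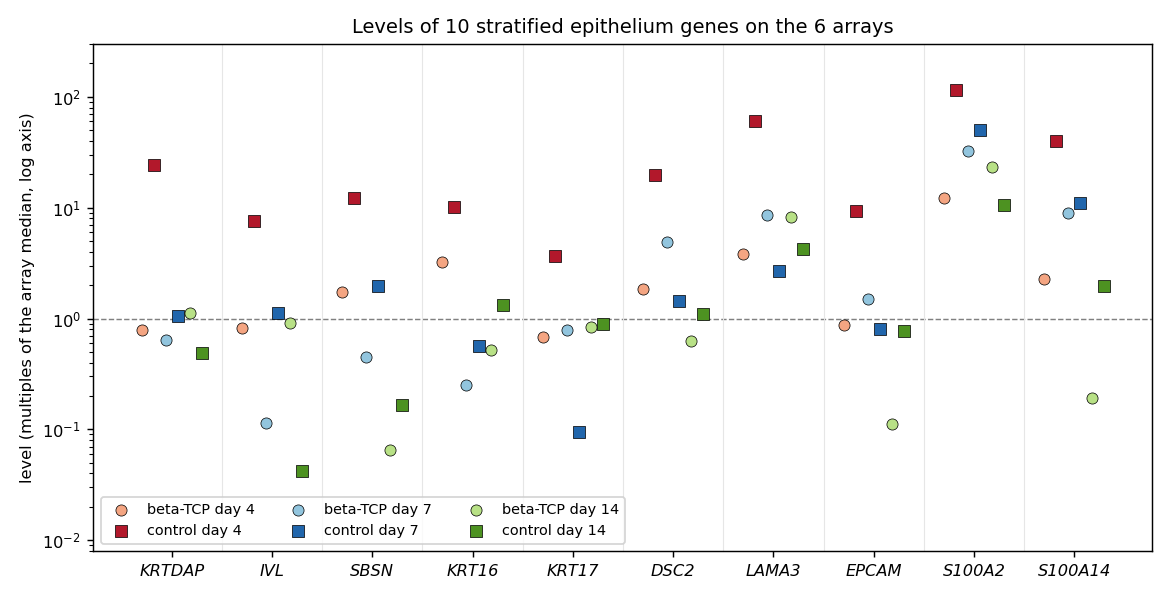
Level of each of the 10 genes (x axis, by role: differentiation, keratins, adhesion, S100) on the 6 arrays, in multiples of the array median on a log axis, where circles are beta-TCP and squares control sites and the dashed line marks the array median. The control day 4 array (dark red squares) is highest for every gene, from 3.69 array medians for KRT17 to 116 for S100A2.

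The 3 genes of terminal differentiation read at most 1.98 array medians on the other 5 arrays. KRTDAP encodes a small secreted peptide of differentiating keratinocytes. In beta-TCP sites it read 0.792, 0.646 and 1.13 array medians on days 4, 7 and 14, and in control sites 24.3, 1.05 and 0.492. Only the control day 4 array stood out, and the other 5 spanned 0.51 log2 units, the narrowest range of any member. The differences were -3.82 on day 4, -0.31 on day 7 and 0.51 on day 14.

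IVL encodes involucrin, a scaffold protein of the cornified envelope. Beta-TCP sites gave 0.818, 0.113 and 0.903 array medians on days 4, 7 and 14, and control sites 7.61, 1.13 and 0.0417. SBSN encodes suprabasin, a secreted protein of the upper epidermal layers. It read 1.74, 0.451 and 0.0645 array medians in beta-TCP sites and 12.2, 1.98 and 0.167 in control sites. In both genes the control sites read lower on each later day, with the control day 7 array second among the 6. Their differences were -2.24 and -2.27 on day 4, -0.93 and -1.04 on day 7, and 0.87 and -0.13 on day 14 (IVL, then SBSN).

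The keratins 16 and 17 are type I keratins that keratinocytes switch on after injury. KRT16 read 3.26, 0.253 and 0.516 array medians in beta-TCP sites on days 4, 7 and 14, against 10.1, 0.562 and 1.32 in control sites. It is the only member whose second highest array was beta-TCP day 4, so both day 4 specimens read above every later one. Its difference on day 4 was -1.37, the smallest of the 10.

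KRT17 gave 0.678, 0.78 and 0.839 array medians in beta-TCP sites and 3.69, 0.0948 and 0.883 in control sites. A further KRT17 probe set followed the same order on day 4, with 0.714 array medians in the beta-TCP site and 3.16 in the control site. The last KRT17 probe set stayed under 1 array median on all 6 arrays, was highest on control day 14 and did not pass the filter on low values. KRT16 and KRT17 are related keratins and adjacent in the genome, so how far their probe sets read 1 of them alone was not tested.

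DSC2, LAMA3 and EPCAM are genes of adhesion. DSC2 encodes desmocollin 2, a desmosomal cadherin that simple epithelia and heart muscle also use. Its levels were 1.84, 4.9 and 0.629 array medians in beta-TCP sites and 19.6, 1.44 and 1.09 in control sites. LAMA3 encodes the alpha 3 chain of the anchoring laminin beneath basal keratinocytes. It read 3.81, 8.67 and 8.31 array medians in beta-TCP sites against 60.2, 2.68 and 4.23 in control sites. EPCAM encodes an adhesion molecule of simple epithelia. It read 0.882, 1.5 and 0.113 array medians in beta-TCP sites, and 9.33, 0.799 and 0.775 in control sites. In all 3 the beta-TCP day 7 array was second, above the control day 7 array.

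Among adhesion genes the probe sets of a gene did not always run together. LAMA3 had a second probe set with the same order on day 4 (0.96 array medians in the beta-TCP site, 5.23 in the control site), but its last read 1.03 in the beta-TCP site and 0.133 in the control site, a difference of 0.84. EPCAM had 1 probe set that was highest on beta-TCP day 14 at 0.855 array medians and read 0.032 in the beta-TCP site and 0.709 in the control site on day 4. Its remaining probe set gave 0.686 array medians in the beta-TCP site and 3.94 in the control site.

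S100A2 and S100A14 encode small calcium-binding proteins found in keratinocytes, S100A2 mainly in basal ones. S100A2 read 12.3, 32.2 and 23.3 array medians in beta-TCP sites on days 4, 7 and 14, and 116, 49.8 and 10.7 in control sites. This probe set was above 10 array medians on all 6 arrays, with its lowest percentile, 84.9, on control day 14. The second S100A2 probe set gave the same order of arrays and a day 4 difference of -3.07, beside -3.13, and read 7.39 array medians (percentile 81.3) on control day 14.

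S100A14 read 2.26, 8.9 and 0.194 array medians in beta-TCP sites and 40, 11 and 1.98 in control sites. Its other probe set, of the other name type, gave 1.77, 8.35 and 0.177 in beta-TCP sites and 38.4, 10.2 and 1.16 in control sites. By their leading probe sets both S100 genes read at least 8.9 array medians on both day 7 arrays. No differentiation gene or keratin among the members read above 1.98 there.

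Over the 18 probe sets, 15 were highest on control day 4. The other 3 were the probe sets of KRT17, LAMA3 and EPCAM named above, and 16 of the 18 passed the filter. Within their arrays, which does not depend on scaling, the leading probe sets stood between the 74.4 percentile (KRT17) and the 98.6 percentile (S100A2) on control day 4. In the beta-TCP day 4 array the same probe sets stood between 41.5 (KRT17) and 86.7 (S100A2). KRTDAP was at the 45.0 percentile in the beta-TCP day 4 array and at the 93.4 percentile in the control day 4 array.

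**Figure D2:**
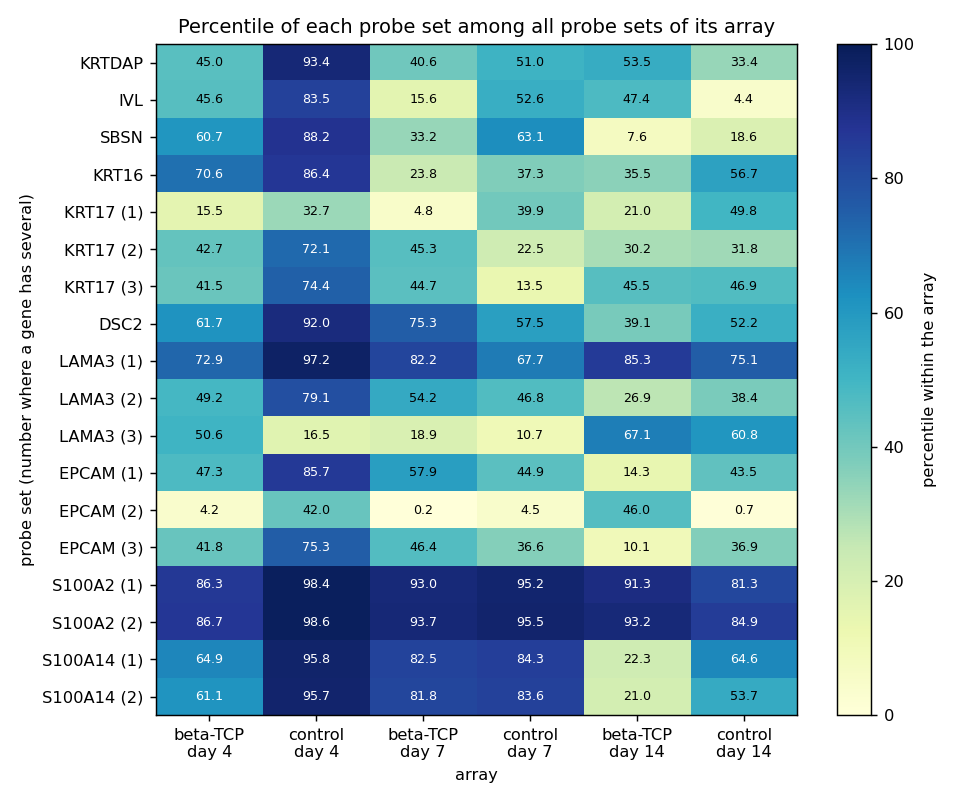
Percentile of each of the 18 probe sets (rows, numbered where a gene has several) among all probe sets of its array (columns, beta-TCP left of control on each day), with the value printed in each cell. The control day 4 column holds the highest percentile in 15 rows, and the leading S100A2 probe set lies at 84.9 or above in every column.

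On day 4 all 10 members were at least 2-fold lower in the beta-TCP site than in the control site, with a median of -2.66. Of all 10530 genes 3.1% were at least 2-fold lower and 4.52% higher, with a median of 0.17. This comparison chose most of the members, so nothing is read from the count. All 10 had a mean above the filter, which lay at 0.70 log2. Without the control day 4 array 9 of 10 would have reached it, IVL (0.62) being the exception.

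On day 7 the members divided. 1 gene, SBSN (-1.04), was at least 2-fold lower in the beta-TCP site, where 3.44% of all genes were, and 2 genes, LAMA3 (1.39) and DSC2 (1.28), were at least 2-fold higher, where 2.96% of all genes were. The 3 differentiation genes and both S100 genes were lower, but these are the 5 chosen for being low with days 4 and 7 pooled, so nothing is read from their direction. Of the other 5, the 3 adhesion genes and KRT17 (0.70) were higher and KRT16 (-0.32) lower, where 58.2% of all genes were lower. The median of the 10 was -0.30, beside -0.08 for all genes. The counts at 2-fold are low and move with the scaling, with 0 lower genes after quantile normalization and 2 with a pseudocount of 0.25.

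On day 14, 1 member, S100A14 (-1.32), was at least 2-fold lower in the beta-TCP site and 1, S100A2 (1.06), was at least 2-fold higher, against 15.4% and 3.47% of all genes. The median was -0.08, beside -0.23 for all genes. The beta-TCP day 14 array was lowest of the 6 for 4 of 10 members (SBSN, DSC2, EPCAM and S100A14), and for 33.8% of all genes.

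**Figure D3:**
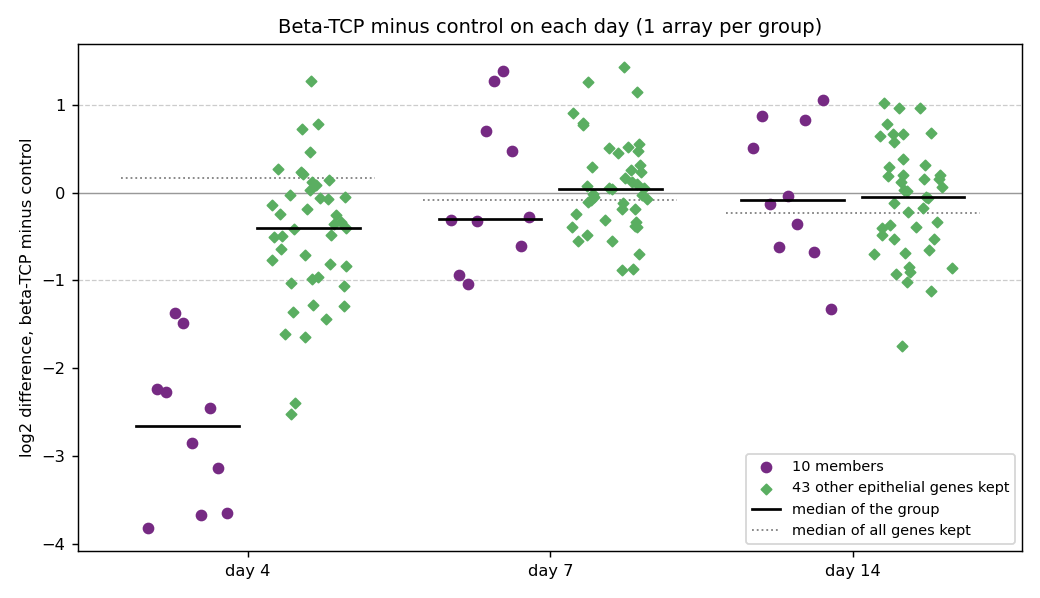
Log2 difference, beta-TCP minus control, on days 4, 7 and 14 for the 10 members (purple circles) and for 43 other epithelial genes kept (green diamonds, jittered sideways), with the median of each group as a black bar, the median of all genes as a dotted line and 2-fold as dashed lines. The members lie between -3.82 and -1.37 on day 4 and on both sides of 0 on days 7 and 14.

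The 4 arrays of days 7 and 14 allow a test. Day 7 had a part in the choice of the 5 genes named above, and what part either day had for KRT16, KRT17 and EPCAM is not known here. Day and treatment entered as additive terms over 10530 genes, and the beta-TCP term was tested by limma (1 residual degree of freedom, two-sided, Benjamini-Hochberg adjusted). In it 17 genes passed an adjusted p of 0.05, which is 0.161% of those tested, and 0 of the 10 members. Without the filter on low values 0 of 15112 genes passed by limma, with 547 at an unadjusted p under 0.05. At an unadjusted p under 0.05 there were 526 genes, among them 1 member.

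That member was LAMA3, with a mean log2 level of 3.25 in beta-TCP sites and 2.13 in control sites over the 2 days. The difference was 1.11 ± 0.44 (SE), higher with beta-TCP on both days, with an adjusted p = 0.736 by limma. It rests on the leading of 3 LAMA3 probe sets. Another differed by 0.26 on day 7 and by -0.35 on day 14, and with the mean of probe sets, or with CfaAffx probe sets alone, 0 members had an unadjusted p under 0.05. S100A14 differed by -0.80 ± 0.45 and SBSN by -0.58 ± 0.45, neither of which passed. The other 7 estimates lay between -0.47 (KRT16) and 0.46 (DSC2). For KRTDAP, at -3.82 on day 4, the estimate was 0.10 with a 95% interval from -0.81 to 1.01. IVL entered the fit only because its control day 4 value lifted its mean over the filter, and its estimate was -0.03 ± 0.47 (SE). For EPCAM the estimate was -0.10 with an interval from -1.02 to 0.83. These intervals pool the spread over all genes and rest on 2 arrays per arm. They may be too narrow, since the prior degrees of freedom that limma estimated (28.0) fell as low as 3.34 in the alternatives. The same estimate was infinite with quantile normalization and with Cfa probe sets alone. A difference that varies between the days, as for S100A2 (-0.61 on day 7, 1.06 on day 14), enters the residual.

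**Figure D4:**
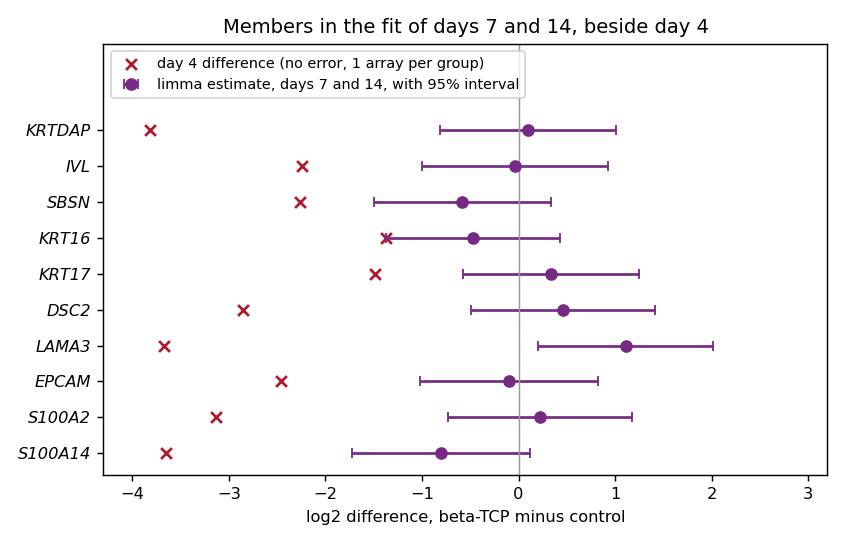
Beta-TCP minus control for each member over days 7 and 14 (purple points, limma estimate with its 95% interval) and on day 4 alone (red crosses, no error since each group holds 1 array), in log2 units. The interval includes 0 for 9 of the 10 genes, LAMA3 being the exception before adjustment.

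Whether the day 4 difference sat with the beta-TCP site or with the control site was described by setting each against the other days. Control day 7 minus control day 4 was at least 2-fold lower in 10 of 10 members (median -2.33), where 4.73% of all genes were lower and 15.9% higher. That comparison shares the control day 4 array with the day 4 comparison. Beta-TCP day 7 minus beta-TCP day 4 uses the other array of that comparison, so it is not free of the choice of members either. It was at least 2-fold lower in 1 member, KRT16 (-1.77), and higher in 4, S100A14 (1.60), S100A2 (1.32), DSC2 (1.05) and LAMA3 (1.01). These 4 are among the genes chosen for a low beta-TCP value relative to control on day 4. Of all genes 2.58% were lower and 4.87% higher.

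Set against the control arrays of other days, a comparison chosen after the values were seen, the beta-TCP day 4 array gave few members past 2-fold. Against control day 7 it was at least 2-fold lower in 2 members, S100A2 (-1.93) and S100A14 (-1.88), where 6.39% of all genes were. It was at least 2-fold higher in 1, KRT16 (1.45), where 2.39% of all genes were. Against control day 14 it was at least 2-fold lower in 0 members, where 6.4% of all genes were. It was at least 2-fold higher in 1, SBSN (1.23), where 4.81% of all genes were. The medians of the 10 were -0.03 and 0.23.

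From day 7 to day 14, with the change of scale named above, 3 members were at least 2-fold lower on the beta-TCP arrays. These were S100A14 (-3.05), DSC2 (-1.86) and EPCAM (-1.17), with 0 higher, against 16.6% of all genes lower and 4.82% higher. On the control arrays 4 were at least 2-fold lower, S100A2 (-2.12), S100A14 (-2.01), SBSN (-1.35) and IVL (-1.03), and 0 higher, against 6.29% lower and 4.19% higher. S100A14 was the only member at least 2-fold lower in both arms.

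How far other epithelial genes shared the pattern was described with 5 lists of 125 genes (keratins, cornified envelope, desmosomes and junctions, hemidesmosomes, transcription and splicing factors), none of them members. Of these, 91 had a probe set to themselves and 43 were kept. The basal keratin genes KRT5 and KRT14 and the envelope gene FLG had no probe set assigned to them alone here, so they were not analysed here. Of the 43, 12 were highest on control day 4, or 27.9%, beside 15.7% of all genes. Of the 12, 1 (GJB2) was so by at least 2-fold, beside 1.42% of all genes. Without the filter 22 of 91 were highest on control day 4, or 24.2%, beside 15.6% of all measured genes. More of the 91, 24 or 26.4%, were then highest on beta-TCP day 14, beside 23.7% of all measured genes. On day 4, 10 of the 43 were at least 2-fold lower in the beta-TCP site and 1 higher (PLEC, 1.28), with a median of -0.40. Of all genes 3.1% were lower and 4.52% higher, with a median of 0.17.

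The lists were uneven. Among junction genes, GJB2, which encodes the gap junction protein connexin 26, read 1.02, 2.53 and 1.08 array medians in beta-TCP sites on days 4, 7 and 14, and 10.6, 0.591 and 0.7 in control sites. CLDN7, a claudin of tight junctions, read 0.749, 1.39 and 0.694 in beta-TCP sites and 4.35, 2.12 and 1.13 in control sites. Both were highest on control day 4. On that day 4 of the 14 junction genes kept were at least 2-fold lower with beta-TCP, beside 3.1% of all genes.

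Among envelope genes, PPL, which encodes the plakin periplakin, read 1.02, 3.45 and 2.16 array medians in beta-TCP sites and 9.65, 5.53 and 2.08 in control sites. SPINK5, which encodes a protease inhibitor of the skin barrier, differed by -1.36 on day 4. The transcription factor gene EHF, of the epithelial ETS group, read 0.839, 2.14 and 0.21 in beta-TCP sites and 4.77, 2.32 and 1.18 in control sites. Of the keratins kept, KRT7 (-1.29) and KRT13 (-1.06) were at least 2-fold lower with beta-TCP on day 4, and KRT13 was no higher than 1.82 array medians anywhere. Taken by list, up to 2 per list, the largest differences in the other direction were under 2-fold apart from PLEC. They were 0.72 for KLF4, a differentiation factor that many cell types use, and 0.78 for DST (dystonin). The rest were 0.24 for CLDN4, 0.21 for KRT80, 0.15 for KLK8, 0.12 for PKP1, 0.09 for TFAP2C and 0.03 for KRT10.

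At a level of 4 array medians or more there were 7 of the 91 measured genes in the beta-TCP day 4 array and 15 in the control day 4 array. The same count was 10 and 13 on day 7 and 8 and 9 on day 14 (beta-TCP, then control). The share of all genes at that level was not counted, so nothing is read from these counts. On day 4 the desmosome gene PERP read 1.57 in the beta-TCP site and 5.97 in the control site. LAMB3, the laminin chain that pairs with LAMA3, read 1.81 in the beta-TCP site and 3.79 in the control site. SFN, which encodes stratifin, read 0.0907 in the beta-TCP site and 1.10 in the control site. In the same order, ELF5 read 0.06 and 1.24, GRHL1 0.0758 and 1.10, ESRP1 0.0898 and 1.09, ESRP2 0.0381 and 0.691, and COL17A1 0.171 and 1.28. MAP7 (0.677 and 0.155) and ELF3 (0.464 and 0.404) read lower in the control site. RAB25 (0.0632 and 0.0704), PAX9 (0.0389 and 0.0403) and TRIM29 (0.45 and 0.544) hardly differed. On later days COL17A1 read 1.22 in the control site (day 7) and GRHL1 0.903 in the beta-TCP site (day 14). ESRP1 read 0.738 in the beta-TCP site and 0.675 in the control site on day 7. All of these were named after their values were seen. The means of SFN and of these genes did not pass the filter. TP63, CDH1, DSG1, KRT1 and DSP read under 1 array median in both day 4 sites. TP63, the master regulator of basal keratinocytes, read 0.0313 array medians in the beta-TCP site and 0.0232 in the control site on that day, and at most 0.0645 on any array. The E-cadherin gene CDH1 read 0.0691 and 0.261, the desmoglein gene DSG1 0.358 and 0.238, and the suprabasal keratin gene KRT1 0.0785 and 0.0566 (beta-TCP site, then control site). DSP, the desmosomal plaque gene, read 0.792 in the beta-TCP site and 0.822 in the control site. The desmoglein gene DSG3 read 0.238 in the beta-TCP site and 2.38 in the control site, and its mean did not pass the filter. The array cannot show whether these probe sets detect their transcripts in canine epithelium, since no such specimen is among the 6.

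Genes that wounded keratinocytes switch on, some of which leukocytes also express, were mostly highest on the same array as the members. Of 13 such genes kept, 10 were highest on control day 4 and 4 of them by at least 2-fold, beside 15.7% and 1.42% of all genes. On that day 7 were at least 2-fold lower with beta-TCP and 0 higher, beside 3.1% and 4.52% of all genes. SERPINB2, a serpin of wounded keratinocytes and of macrophages, read 6.35, 5.87 and 0.0645 array medians in beta-TCP sites on days 4, 7 and 14, against 133, 7.63 and 6.43 in control sites. The EGF receptor ligand gene AREG read 10.3, 0.495 and 0.0806 in beta-TCP sites and 57.6, 1.88 and 5.16 in control sites. S100A8, which neutrophils also express strongly, read 474, 516 and 62.8 in beta-TCP sites and 824, 711 and 143 in control sites.

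Neutrophil genes were mostly highest there too. Of 7 neutrophil genes kept (of 15 listed, 10 of them with a probe set), 6 were highest on control day 4, beside 15.7% of all genes. On that day 3 were at least 2-fold lower with beta-TCP, beside 3.1% of all genes. TREM1 read 49 array medians in the beta-TCP site and 131 in the control site on day 4. The summed level of the 10 measured neutrophil genes was 142 in the beta-TCP site and 249.6 in the control site on that day. It was 257 and 811 on day 7 and 202 and 88 on day 14 (beta-TCP, then control), where MMP9, which osteoclasts also express, made up most of it. The granule genes were uneven. On day 4, LTF read 6.63 array medians in the beta-TCP site and 19.0 in the control site, and MMP8 0.887 and 2.62. MMP9 read 59.3 and 52.5 on that day, and MPO and ELANE stayed under 1 array median on all 6 arrays. The part of leukocyte or wound genes in the members' pattern was not tested. Of 10 genes of granulation tissue fibroblasts, 7 were lowest on control day 4, where 33.3% of all kept genes were. On that day 5 were at least 2-fold higher with beta-TCP and 0 lower, beside 4.52% and 3.1% of all genes.

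**Figure D5:**
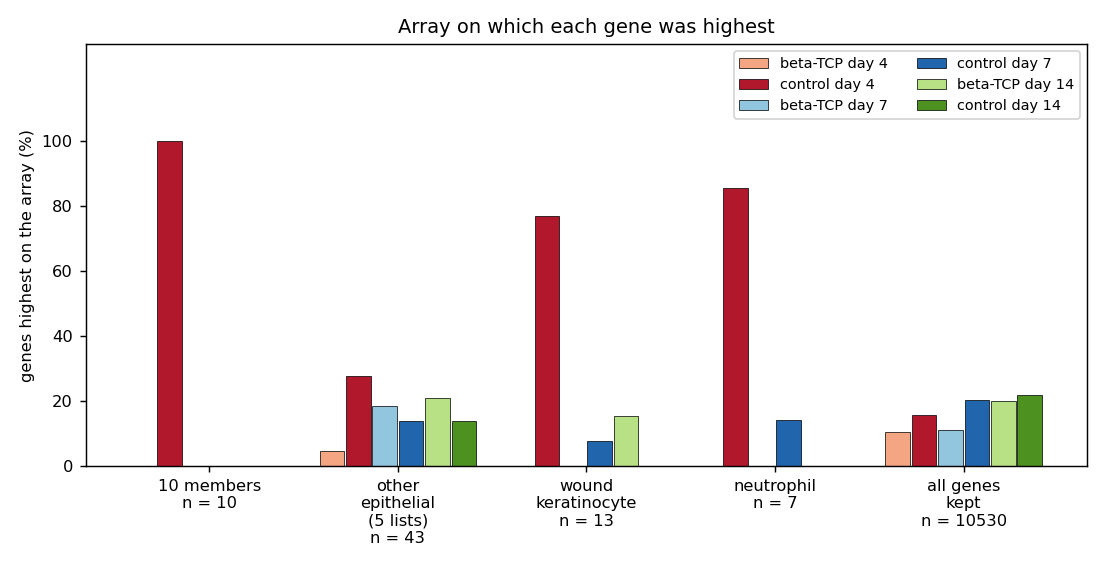
Share of genes (y axis, %) that were highest on each of the 6 arrays, for the 10 members, 43 other epithelial genes, 13 wound keratinocyte genes (some also expressed by leukocytes), 7 neutrophil genes and all 10530 genes kept. Control day 4 (dark red) holds 100% of the members, 27.9% of the other epithelial genes, 76.9% of the wound keratinocyte genes and 85.7% of the neutrophil genes, beside 15.7% of all genes.

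The genes most like the members were sought by Pearson correlation over the 6 arrays with the members' mean centred profile, among 1470 genes with a range of at least 2 log2 units. The 10 highest, from 0.96 to 0.93, were LIMK2, IL13RA2, ELL, LOC475113, TPD52, C7H18orf25, GJB2, UOX, SLC7A11 and SLC6A14. The 6 points share the one high array, so the values rest largely on a peak on control day 4. Without that array they ranged from -0.06 (UOX) to 0.92 (SLC6A14). SLC6A14, an amino acid transporter gene, read 0.772, 2.6 and 0.0484 array medians in beta-TCP sites and 14.6, 3.09 and 0.483 in control sites. LIMK2, which encodes a kinase of the actin cytoskeleton, read 33.4, 26.5 and 19.2 in beta-TCP sites and 110.4, 37 and 19.3 in control sites.

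How alike the members were among themselves was described the same way. The correlation of each with the mean of the other 9 lay between 0.77 (KRT16) and 0.97 (EPCAM) over 6 arrays. Without control day 4 it lay between -0.65 (KRT17) and 0.64 (EPCAM), with 5 points each.

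The selection did not use position. In the RefSeq gene table of the dog assembly UU_Cfam_GSD_1.0, used only for which genes neighbour each other, KRT16 and KRT17 are adjacent on chromosome 9. SBSN and KRTDAP flank DMKN on chromosome 1, and S100A14 and S100A2 flank S100A16 on chromosome 7. DMKN, which encodes the secreted epidermal protein dermokine, read 0.377 array medians in the beta-TCP site and 0.185 in the control site on day 4. S100A16 read 7.66 and 13.9, and S100A5, close to S100A2, read 0.591 and 11.5 (beta-TCP site, then control site). Of 44 other genes within 3 places of a member, 31 were measured and 18 kept. Of the 31, 6 were highest on control day 4, where 15.6% of all measured genes were, and the 6 were all among the 18 kept, where 15.7% of all kept genes were. On day 4, 3 of the 18 were at least 2-fold lower with beta-TCP (S100A5, FFAR2 and GAPDHS), against 3.1% of all genes. S100A13, beside S100A14 (1.13), and CDH2, near DSC2 (1.07), were at least 2-fold higher, against 4.52% of all genes.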

How the data were processed

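One table with 1 column per array was used. For days 4 and 7 the authors deposited a ratio of signal to the array's own median, and for day 14 an undivided intensity. The values themselves showed both units. Which software and scaling made them is not stated in the labels. Each array was divided by its median over 42860 probe sets, and log2(value + 1) was taken. The array's annotation gave 1 gene for 29254 probe sets. A gene with several probe sets was read from the one of highest mean. Left out were 90 pairs of probe sets sharing a stem and ending in _a_at and _at. Genes with a mean at or above the 40th percentile of probe set means were kept (10530). Differences with 1 array per group have no test. The fit of days 7 and 14 used limma 3.58.1 (R 4.3.3). On simulated data it called the large changes and few of the 2-fold ones, with more false calls than its nominal share. The number of arrays limits the precision. The members, the lists and the rules were chosen with earlier results of these data known. The rule for named genes took, from the kept genes of each list, the 2 largest positive and the 2 largest negative day 4 differences and the gene with the highest mean. It also took the 10 genes most like the members. TP63, CDH1, DSG1, DSG3, DSP, KRT1, PERP, LAMB3, SFN, DMP1, MEPE, SOST, MPO, ELANE and the neighbouring genes were named after their values were seen. So were ELF5, GRHL1, ESRP1, ESRP2, COL17A1, MAP7, ELF3, RAB25, PAX9, TRIM29, SPP1, RUNX2, LTF and MMP8.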

Additional observations from a re-analysis of the deposited data

Results flagged for a closer look

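In 3 genes the difference between beta-TCP and control was at least 2-fold on 2 days and of opposite sign. DSC2 differed by 1.28 on day 7 and by -2.86 on day 4. LAMA3 differed by 1.39 on day 7 and by -3.67 on day 4. S100A2 differed by 1.06 on day 14 and by -3.13 on day 4. With 1 array per group on each day, the difference between days was not tested.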

How the results depend on the processing

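No paired analysis was possible because the groups share fewer than 2 replicate numbers, though the day term of the fit does set beta-TCP against control within a day. Leaving out an array removes its whole group, so it was tried only for the order of arrays and, for control day 4, with another day's control in its place. On day 4 the members were lower with beta-TCP in all 74 values from 8 alternatives (from -4.56 to -0.72) and at least 2-fold lower in 72. The exceptions were KRT16 (-0.95) and KRT17 (-0.72) with a pseudocount of 4, which moved the median to -1.76. All 74 values reprocess the same day 4 arrays, whose difference chose most members. Their sign was thus largely fixed by that choice, and they show only how the size depends on processing. With Cfa probe sets alone 5 members had a value, and 5 were at least 2-fold lower and highest on control day 4. All 10 stayed highest on control day 4 by percentile and without the beta-TCP day 14 array, both added after seeing the data. In place of control day 4, control day 7 left 2 members at least 2-fold lower and control day 14 left 0, also added. The count of members at least 2-fold lower on day 7 was 2 with a pseudocount of 0.25 and 0 with a pseudocount of 4, quantile normalization, the 90th percentile or Cfa probe sets. On day 14 it was 3 with a pseudocount of 0.25 and 0 with a pseudocount of 4 or CfaAffx probe sets. The count of all genes past the adjusted p over days 7 and 14 by limma was 26 with quantile normalization and 25 (of 5989) with Cfa probe sets. It was 4 with a pseudocount of 0.25, 2 with the 90th percentile, and 0 with a pseudocount of 4, the mean of probe sets, CfaAffx probe sets, no filter or all 6 arrays. The cause was not tested. In each of these fits 0 of the members with a value passed. At an unadjusted p under 0.05, the fits with 0 calls had 425, 354, 221, 547 and 513 genes in the order just given.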

Other observations

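Few genes of other tissues near the jaw bone were kept, 5 of salivary gland, 4 of skeletal muscle and 3 of other cells of the oral mucosa. Of these, 0 were highest on control day 4, where 15.7% of all kept genes were, so the count is too small to read. The muscle gene ACTN2 differed by -1.27 on day 4. The 9 measured salivary gland genes summed to 13.8, 11.6 and 21.5 array medians in beta-TCP sites on days 4, 7 and 14, and to 9.53, 9.08 and 18.8 in control sites. The 11 measured skeletal muscle genes summed to 8.18, 14.4 and 13.6 in beta-TCP sites and to 11.3, 13.2 and 12.7 in control sites. The 7 measured genes of melanocytes and nerve sheath summed to 5.81, 9.48 and 10.7 in beta-TCP sites and to 4.53, 10.3 and 12.7 in control sites. Among genes of odontogenic epithelium, ODAM, a secreted protein gene of the junctional epithelium around teeth, read 0.161, 4.13 and 0.0645 array medians in beta-TCP sites and 3.53, 0.629 and 0.783 in control sites, with beta-TCP day 7 and control day 4 the highest. KLK4, a protease gene of enamel formation, read 5.41, 13.6 and 17.8 in beta-TCP sites and 2.52, 4.06 and 12.5 in control sites.

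ITGA6, the alpha 6 integrin gene of hemidesmosomes that endothelium also uses, read 67.2, 80.7 and 44.5 array medians in beta-TCP sites and 118, 29.2 and 84.4 in control sites. On day 7 it was higher in the beta-TCP site by 1.43, as GJB2 (1.15), LAMA3 (1.39) and DSC2 (1.28) were. Its hemidesmosome partner ITGB4 differed by 0.06 on that day.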
